A study of Sus scrofa with 12 samples.

Results

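Solute carriers are membrane proteins that move small molecules and ions across the plasma membrane and the membranes of organelles, and the liver uses them to take up and release nutrients, metals, vitamins, drugs and the intermediates of its own metabolism. They work as facilitators, exchangers or cotransporters driven by gradients, without splitting ATP themselves. In hepatocytes, members on the blood-facing membrane bring in sugars, amino acids, copper and organic anions, the mitochondrial carrier family links cytosolic and mitochondrial metabolism, and carriers in the endoplasmic reticulum (ER) and Golgi supply nucleotide sugars, ATP and acetyl-CoA to the secretory pathway.

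The solute carrier genes of the pig liver were followed here on the Affymetrix porcine array. A gene was a member if a probe set carried its symbol alone and the symbol began with SLC and a digit or with SLCO. SLC10A1 and SLC37A4 were not included. Each gene was represented by its probe set with the highest mean log2 signal over all arrays. The rule gave 121 genes, from 181 probe sets, of the 6765 genes with a probe set of a single symbol on the array. Of the 121, 95 had signals high enough to be tested between groups. The other 26 lay in the 33.3% of probe sets with the lowest mean log2 signal and are described by level only. The proteins that are named after a carrier but do not transport, SLC9A3R1, SLC9A3R2 and SLC2A4RG, meet the rule and were kept.

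Livers came from 12 German Landrace pigs labelled as adults, 1 array per animal. The labels give each animal a stress response and an aggressiveness, each either low or high, and do not say how these were scored. Each of the 4 groups held 3 animals, 1 female and 2 males, so that each level of a factor held 6 animals. Groups are written with stress response first: high-low 3 is animal 3 of the group with high stress response and low aggressiveness. No treatment, genotype or transgene is labelled, all animals share the breed, and no slide or scan date was at hand, so no batch could be compared. The females were low-low 1, low-high 3, high-low 1 and high-high 3.

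All 8 hepatocyte marker genes examined were measured at mean signals from 27649 to 55567 and none reached an unadjusted p of 0.05 for stress response or aggressiveness. For aggressiveness all 8 were higher in the high level. Their log2 differences ran from 0.106 to 0.189 with a median of 0.153, against a median of 0.007 over all tested probe sets. Between pairs of arrays, log2 signals of the tested probe sets correlated at 0.945 to 0.975. Arrays high-high 3 and high-low 3 had the lowest median correlation with the others (0.9527 and 0.9567), and both belong to the high stress response level. Array low-high 3, of the low level, followed closely at 0.9572. Array high-high 3 held the highest value of 15 tested solute carrier genes and the lowest of 16, more than any other array on both counts. Results are therefore also given without high-high 3 and high-low 3, called below both arrays that stand apart. In whole liver, fewer cells of a type and less RNA per cell cannot be told apart.

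The strongest signals belonged to carriers of the inner mitochondrial membrane. SLC25A3, which brings phosphate into mitochondria, had a mean signal of 12744 ± 1524 (SD, n = 12 for all levels in this section), between 10932 and 15646 in the 12 livers. Among the ADP/ATP exchangers, SLC25A4 had a median of 11692 (8501 to 13237), SLC25A6 a mean of 11165 ± 1604 (8549 to 13583) and SLC25A5 a mean of 6172 ± 977. SLC25A1, which exports citrate for fatty acid and sterol synthesis, had 6542 ± 1309.5, and SLC25A20, which imports acylcarnitines for fatty acid oxidation, had 4602 ± 1209.5. The ranges of SLC25A4 and SLC25A6 overlapped over most of their length. The signal of a probe set also depends on how well its probes bind, so this order is an order of signals and not of transcript numbers. It also rests on the brightest probe set of each gene. A second tested probe set of SLC25A3 had a mean signal of only 118.

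Plasma membrane carriers of the same signal range were few. SLCO2B1, an uptake carrier for organic anions and drugs on the sinusoidal membrane, had 6810.1 ± 1723, SLC31A1, the copper importer, 5753 ± 664, and SLC5A6, the sodium-dependent carrier of biotin and pantothenate, 5769 ± 2113. The scaffold protein SLC9A3R1 stood at 4769.8 ± 690.1. SLC25A17, a family member of the peroxisomal membrane, had 3374 ± 472. SLC35B1, which exchanges ATP for ADP across the ER membrane, had 2699 ± 852, and 3 zinc transporters, SLC39A7 of the ER and Golgi, SLC39A5 and SLC39A1, had 2413 ± 318, 2165.5 ± 369 and 1808 ± 401. The liver glucose transporter SLC2A2 had 1351 ± 177, with a narrow range from 1108 to 1707. Further tested probe sets of SLC31A1, SLC39A5 and SLC39A1 were dimmer, with mean signals of 189, 210 and 826.

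**Figure D1:**
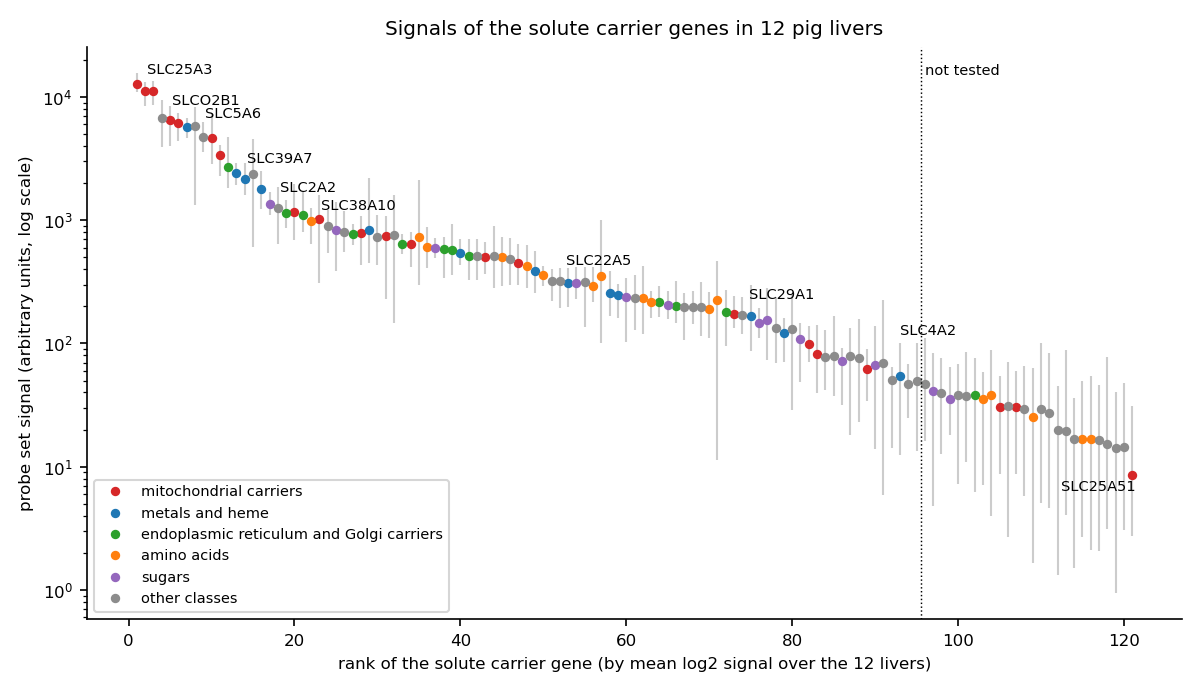
Signal of each of the 121 solute carrier genes in 12 pig livers on a log scale, in order of the mean log2 signal; points are means, grey lines run from the lowest to the highest animal, and colours mark 5 transport classes. SLC25A3 leads at 12744, and the genes right of the dotted line, from rank 96 on, were not tested.

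At the other end, some carriers known from kidney and intestine were among the genes not tested. SLC22A2, an organic cation carrier of the kidney, and the intestinal peptide carrier SLC15A1 had means of 14.3 and 15.4, with fewer than 10% of all probe sets below them. The kidney organic anion carriers SLC22A6 and SLC22A8 had 46.8 and 37.4 and the intestinal fructose carrier SLC2A5 had 35.7, with 33.3%, 29.5% and 29.9% of probe sets below them. Other carriers known from kidney had clearly higher signals, such as SLC15A2 at 731.6 and SLC3A1 at 353. The last tested gene was SLC4A2 at 49.4, and the first one left out was SLC22A6 at 46.8. SLC25A51 had the lowest signal, 8.64. Of 30 transporters listed as liver carriers, 9 had a probe set under that single symbol: SLC2A2, SLCO2B1 and SLC25A20 as given above, SLC39A14 at 837 ± 469.9, the urate and phosphate carrier SLC17A1 at 804 ± 216, the amino acid carrier partner SLC3A2 at 291 ± 53.9, the glutamate carrier SLC1A2 at 232 ± 103, the nucleoside carrier SLC29A1 at 169 ± 42.2 and the macrophage metal transporter SLC11A1 at 167 ± 58.0. The other 21 were not analysed here.

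The classes differed in level. Of 21 members of the mitochondrial carrier family, 18 were tested, and their median signal over the 21 was 749. All 13 metal and heme carriers were tested, with a median of 389, as were 11 of 12 ER and Golgi carriers, with a median of 575. Amino acid carriers had a median of 232 with 12 of 17 tested, and sugar carriers 154 with 11 of 13 tested. Carriers of inorganic ions had a median of only 50.2, and 9 of 13 were tested; organic ion, bile acid and drug carriers had a median of 106 although SLCO2B1 is among them, with 6 of 10 tested.

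Spread between animals was unequal. The subunits of the cystine and dibasic amino acid transporter, SLC7A9 and its partner SLC3A1, were both among the most variable genes, with standard deviations of 1.15 and 1.00 on the log2 scale. SLC7A9 ran from 11.3 in high-high 3 to 466.1 in low-high 2, and SLC3A1 from 101 in high-low 1 to 1002 in low-low 3, so their extremes fell in different animals. SLC16A13, a monocarboxylate carrier of the liver, ran from 604 in low-low 3 to 4528 in low-low 1, both in the same group. The bicarbonate cotransporter SLC4A4 (5.94 to 225), the potassium-chloride cotransporter SLC12A4 (147 to 1606) and the glutamine carrier SLC38A1 (299.6 to 2102) completed the 6 most variable tested genes. The most even tested gene was SLC7A7, the light chain of a cationic amino acid exchanger, at 360.4 ± 37.9, with a standard deviation of 0.15 on the log2 scale.

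Stress response was compared over all 12 livers with aggressiveness and sex in the model. No solute carrier gene passed a Benjamini-Hochberg adjusted p of 0.05 in limma, and neither did any of the 15999 probe sets tested (0%); the smallest adjusted p of a member was 0.523. At an unadjusted p of 0.05 the signal of 8 of the 95 was higher with high stress response, against 5.03% of all tested probe sets, and that of 4 was lower, against 3.13%. These 12 genes, out of 95, are described below as differences that did not pass the adjusted threshold. Differences are high minus low on the scale of log2(signal + 16), which understates those of dim genes, with standard errors (SE) from limma. Over the 95 genes the differences centred near 0, with 49 above and 46 below it and a median of 0.007, against a median of 0.028 over all tested probe sets, 55.7% of which were above 0.

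SLC39A14, which takes up zinc, manganese and iron that is not bound to transferrin, had the smallest p. Signals in the low stress response livers were 519, 605 and 450.1 in low-low 1 to 3 and 737, 540.2 and 584 in low-high 1 to 3. With high stress response they were 804, 601 and 1020.3 in high-low 1 to 3 and 988, 1002 and 2187 in high-high 1 to 3. The levels overlapped only through high-low 2, which lay below 2 livers of the low level, and the highest value came from high-high 3. The mean was 1100.4 ± 556 against 573 ± 97.2 (SD, n = 6 each), a log2 difference of 0.82 ± 0.21 (SE; limma, unadjusted p = 0.00261, adjusted p = 0.523). Without both arrays that stand apart it was 0.54. A second probe set of the gene, at a mean signal of 344, gave 0.56 ± 0.21.

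Both carriers that supply the ER lumen with ATP and acetyl groups were also higher in signal. SLC35B1 lay between 1810.0 and 2392 in the low level and between 2528 and 4734 in the high level, so its levels did not overlap. Its means were 2143 ± 246 and 3254 ± 893, and the difference was 0.57 ± 0.15 (SE; limma, unadjusted p = 0.00325, adjusted p = 0.523). SLC33A1, the acetyl-CoA transporter of the ER membrane, ranged from 361 to 574 (median 464) and from 483 to 939.6 (median 639). Its levels overlapped, and the females high-low 1 and high-high 3 had its highest signals, 845 and 939.6. SLC33A1 differed by 0.51 ± 0.14, and 2 further probe sets of the gene gave 0.45 ± 0.14 and 0.39 ± 0.22. Without both arrays that stand apart the differences were 0.50 for SLC35B1 and 0.48 for SLC33A1.

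The vitamin carrier SLC5A6 varied mainly in the low level. Its signals there were 3782, 7476 and 2990.0 in low-low 1 to 3 and 5167, 6358 and 1341 in low-high 1 to 3, whereas all 6 livers of the high level lay between 5891 and 8328. The difference was 0.82 ± 0.32, and 0.49 without low-high 3, whose signal was the lowest. The neutral amino acid carrier SLC38A10 had medians of 840.2 (639.7 to 1206) and 1122 (862 to 1248), with a difference of 0.34 ± 0.14. SLC25A24, the mitochondrial ATP-magnesium and phosphate carrier, had medians of 80.4 (71.3 to 106) and 105 (92.3 to 139), with 0.31 ± 0.13. In all 3 genes the levels overlapped.

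The remaining 2 of the 8 genes, which were singled out after their values were seen, were dim, as was SLC25A24. SLC2A4, the insulin-responsive glucose transporter of muscle and fat, lay between 48.4 and 117 in the low level and between 118 and 146 in the high level, a difference of 0.39 ± 0.17. The zinc transporter SLC39A2 ranged from 12.5 to 67.5 and from 28.3 to 101, with 0.76 ± 0.34. SLC35B1 and SLC2A4 were the only members whose levels did not overlap; among all tested probe sets 0.388% had every high-level animal above every low-level animal and 0.15%, none of them a member, had the reverse.

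**Figure D2:**
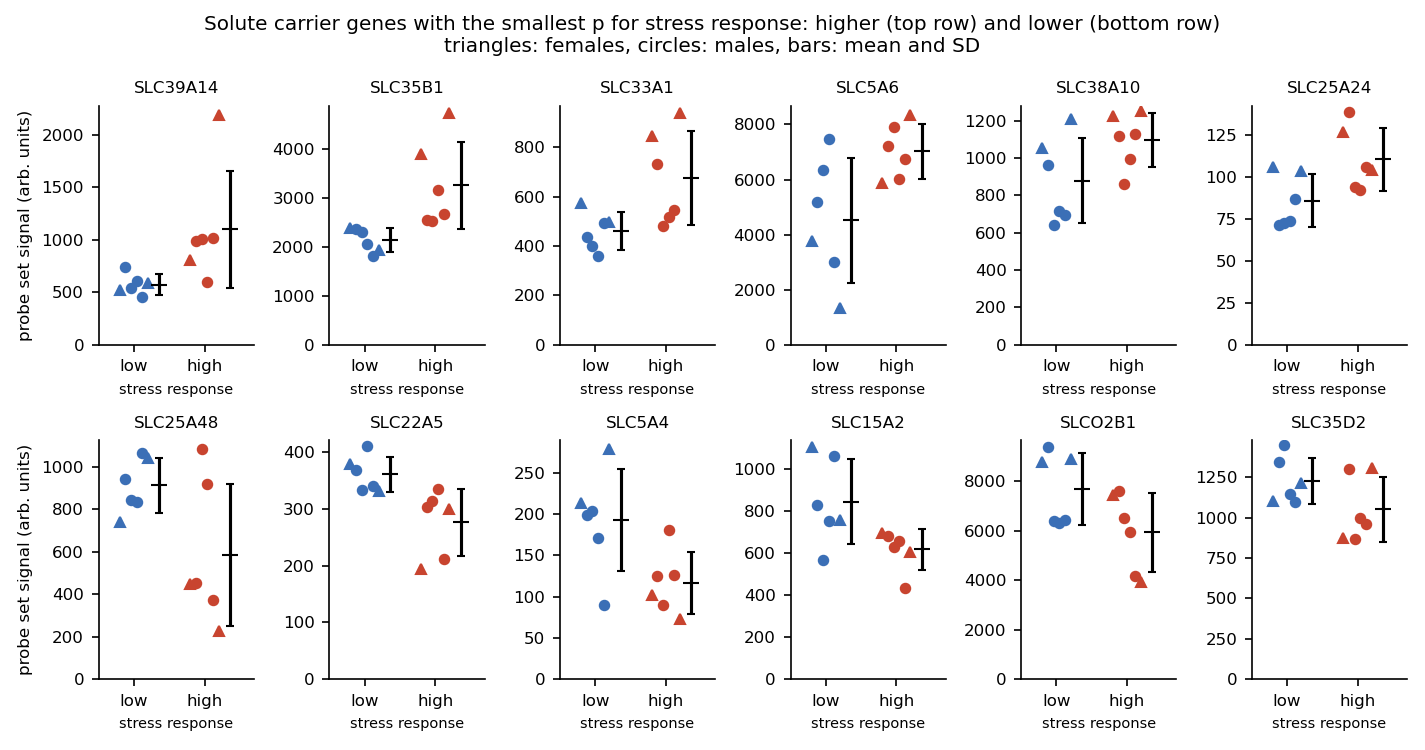
Signal per animal (linear axis from 0, arbitrary units) of 12 solute carrier genes, the 6 of smallest p with a higher signal (top row) and the 6 with a lower signal (bottom row) in high stress response livers; blue points are low and red points high, triangles are females and circles males, and bars show the mean and SD of 6 animals. SLC35B1 separates the levels, and SLC25A48 in the high level splits between 228 and 1083.

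Among the lower genes, SLC25A48, a mitochondrial carrier linked to choline import, had the largest difference. The low level held 739.5, 836 and 1066 in low-low 1 to 3 and 945, 845 and 1044 in low-high 1 to 3. With high stress response the signals were 448, 918 and 375 in high-low 1 to 3 and 455, 1083 and 228 in high-high 1 to 3. The male high-low 2 thus lay inside the low range, the male high-high 2 just above it, and the other 4 below it. The difference was -0.81 ± 0.30 (SE; limma, unadjusted p = 0.0200, adjusted p = 0.566), and -0.45 without both arrays that stand apart.

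SLC22A5, the carnitine transporter of the plasma membrane, ranged from 331 to 411 (median 355) in the low level and from 194 to 336 (median 302) in the high level. Only high-low 2, at 336, reached the low range, and the difference was -0.39 ± 0.15. SLC5A4, a sodium-glucose cotransporter relative, ranged from 89.6 to 279 and from 73.0 to 181, with -0.64 ± 0.26. SLC15A2, the high-affinity peptide carrier, ranged from 567 to 1104 and from 432 to 695, with -0.43 ± 0.18. Its 2 further probe sets did not give the same value: one differed by -0.59 ± 0.17 and the other by -0.04 ± 0.18. Not reaching an unadjusted p of 0.05 were SLCO2B1, with means of 5931 ± 1590.0 in the high and 7689 ± 1466 in the low level and a difference of -0.40 ± 0.21 (unadjusted p = 0.0779), which was -0.12 without both arrays that stand apart, and the Golgi nucleotide sugar carrier SLC35D2 with -0.23 ± 0.13, which was -0.14 without high-high 2.

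Without both arrays that stand apart, 6 members had an unadjusted p under 0.05 for stress response in place of 12, and 5 of the 6 were among the 12: SLC39A14, SLC35B1, SLC33A1, SLC25A24 and SLC22A5. Leaving out high-low 3 alone gave 5, namely SLC39A14, SLC35B1, SLC33A1, SLC5A6 and SLC5A4. SLC39A14, SLC35B1 and SLC33A1, the 3 genes with the smallest p, stayed under 0.05 in both, but in the 8 males alone only SLC39A14 of these did (0.61). In males 8 members had an unadjusted p under 0.05, 4 of them among the 12 (SLC39A14, SLC38A10, SLC25A24 and SLC39A2). There SLC35B1 differed by 0.35 (unadjusted p = 0.0535), SLC33A1 by 0.41 (0.0523), SLC5A6 by 0.41, SLC25A48 by -0.50 and SLC5A4 by -0.29. Of 5 Kupffer cell markers measured, CD163 was higher (0.57 ± 0.18) and MARCO lower (-0.78 ± 0.25) at an unadjusted p of 0.05. The summed marker signal spanned 15875 to 21897 in the high and 14858 to 19606 in the low level, and the part of Kupffer cells in the differences was not tested. Of 4 tested bile duct cell markers, PROM1, at a mean signal of 55.2, was lower (-1.07 ± 0.34) at an unadjusted p of 0.05. The others did not reach it: KRT19 -0.32 ± 0.56, SPP1 -0.20 ± 0.40 and EPCAM 0.13 ± 0.20. CD68, C1QB and CSF1R of the Kupffer cell list were not analysed here.

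**Figure D3:**
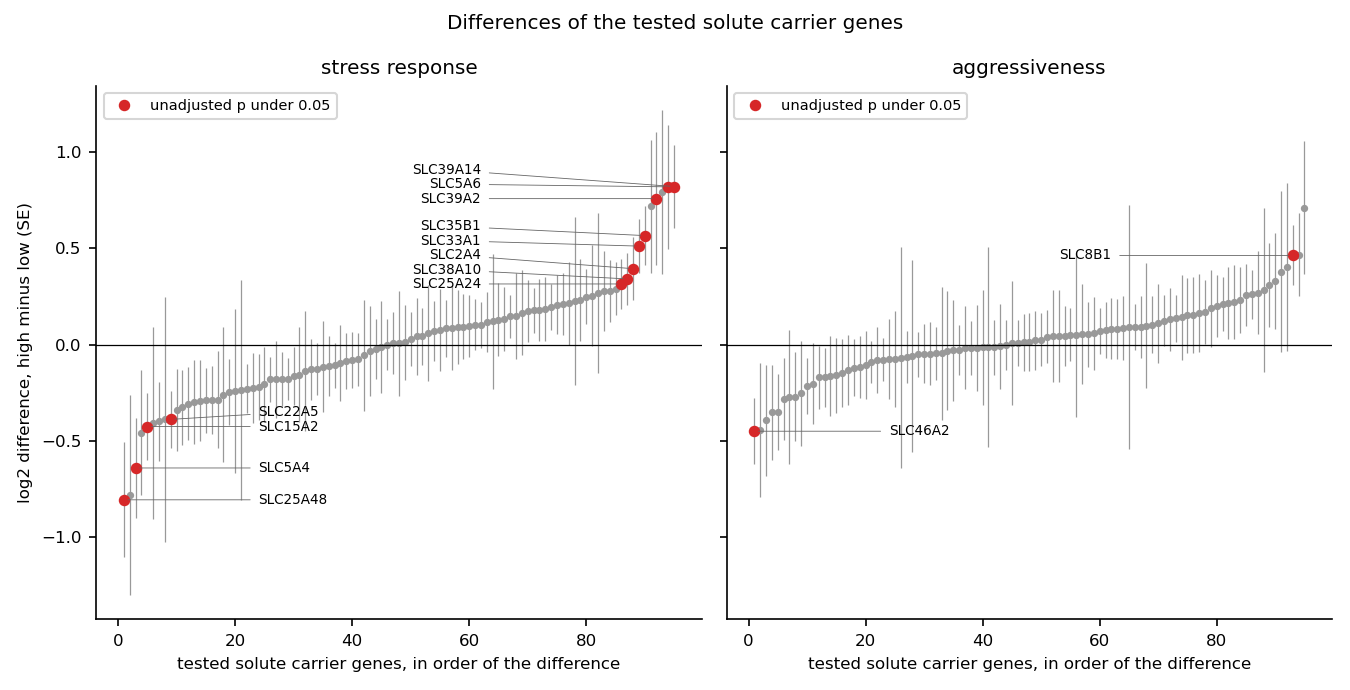
Log2 difference (high minus low, with SE) of the 95 tested solute carrier genes for stress response (left) and aggressiveness (right), each in order of size; red points had an unadjusted p under 0.05, and no gene passed the adjusted threshold. There are 12 red points for stress response and 2 for aggressiveness.

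Aggressiveness was compared in the same model. No probe set passed the adjusted threshold in limma (0%), the smallest adjusted p of a member was 1.00, and at an unadjusted p of 0.05 the signal of 1 member was higher, against 1.84% of all tested probe sets, and that of 1 was lower, against 1.38%. No member had levels that did not overlap; of all tested probe sets 0.0625% were higher and 0.025% lower in every animal of the high level. The median difference over the 95 genes was 0.014, with 51 above 0 and 44 below. The log2 ratio of the 3' to the 5' control probe sets of EF1A, a measure of RNA integrity and labelling, differed along this factor: 0.891 ± 0.0878 with high and 0.721 ± 0.0257 with low aggressiveness (SD, n = 6 each; exact permutation test, two-sided, p = 0.00216, adjusted over 8 tests 0.0173), with no overlap. The ratios of GAPDH and actin did not pass (exact p = 0.593 and 0.838). Because the EF1A ratio and aggressiveness ran together in this way, a model holding both can hardly separate them. Values given below for this factor with the ratio in the model are therefore not an adjustment for RNA quality. The part of RNA quality in the aggressiveness differences was not tested.

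SLC8B1, the sodium-calcium exchanger of mitochondria, was the member higher with high aggressiveness. It ranged from 106 to 200.3 in the low level (median 175) and from 192 to 255 in the high level (median 242), and only low-low 3 lay within the high range. The difference was 0.46 ± 0.16 (SE; limma, unadjusted p = 0.0121, adjusted p = 1.00), 0.31 without both arrays that stand apart, and 0.46 with the EF1A ratio in the model, where its unadjusted p was 0.190. SLC46A2, a relative of the folate carrier SLC46A1, was the lower member, at 164 to 316 in the low level (median 226) and 115 to 198 in the high level (median 176). It differed by -0.45 ± 0.17 (unadjusted p = 0.0222), and by -0.20 with the EF1A ratio in the model.

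For the other members named for aggressiveness the unadjusted p was 0.05 or more, and each value is given with its range over all alternatives and omitted animals. SLC39A14 had 0.47 ± 0.21 (0.27 without high-high 3 to 0.57 without low-high 3; unadjusted p = 0.0511). SLC38A1 had 0.71 ± 0.35 (0.36 without both arrays that stand apart to 1.02 without low-low 3). Its further probe sets differed by 0.73 ± 0.29 and 0.52 ± 0.21, each at an unadjusted p under 0.05 (0.0296 and 0.0309), as did the mean of its probe sets, by 0.65 (0.0150). SLC35D2 had 0.26 ± 0.13 (0.20 without high-high 3 to 0.35 without high-high 2). SLC35F6 had 0.26 ± 0.16 (0.15 without low-low 3 to 0.67 with the EF1A ratio in the model), and the copper carrier relative SLC31A2 had 0.21 ± 0.14 (-0.05 with the EF1A ratio to 0.29 without low-high 2).

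Among the members lower in signal, SLC35F5 had -0.35 ± 0.20 (-0.51 without both arrays that stand apart to 0.12 with the EF1A ratio). Its further probe sets differed by only -0.01 ± 0.17 and 0.10 ± 0.19, and the mean of its probe sets by -0.09. The sulfate carrier SLC26A11 had -0.35 ± 0.25 (-0.87 without high-high 3, high-low 3 and low-high 3, the 3 arrays least like the others, to -0.22 without high-high 1), and the fatty acid transport protein SLC27A1 had -0.39 ± 0.29 (-0.80 with the EF1A ratio to -0.04 without both arrays that stand apart). SLC2A4RG, a transcription factor named for the SLC2A4 gene, had -0.28 ± 0.21 (-0.42 without high-high 2 to -0.14 without high-high 3). The choline carrier-like SLC44A2 had -0.22 ± 0.15 (-0.36 with the EF1A ratio to 0.10 with its probe sets averaged). SLC31A2, SLC35F5 and SLC44A2 thus lay on both sides of 0. The count of 2 members at an unadjusted p of 0.05 was 1 without high-low 1 or without high-high 1, 4 without low-high 2 and 5 without low-high 3.

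Bile duct cell markers were read along this factor too. Of 4 tested, EPCAM (-0.45 ± 0.20) and SPP1 (-0.89 ± 0.40) were lower and PROM1 (0.75 ± 0.34) higher with high aggressiveness at an unadjusted p of 0.05, and KRT19 stood at -0.46 ± 0.56. The summed signal of the list ran from 589 to 1049 in the high and from 620.2 to 3584 in the low level. SOX9 and CFTR were near the lowest signals, at 8.68 and 10.1. Of 4 tested neutrophil markers, NCF4 was higher (0.39 ± 0.11) at an unadjusted p of 0.05. The others did not reach it: S100A8 -0.22 ± 0.26, S100A9 -0.12 ± 0.39 and ELANE 0.03 ± 0.30. The part of bile duct cells and neutrophils in the aggressiveness differences was not tested. No endothelial, stellate, erythroid or lymphocyte marker had an unadjusted p under 0.05 for either factor.

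The interaction asks whether the stress response difference depends on aggressiveness, and was measured as the stress response difference with high aggressiveness minus that with low aggressiveness. No probe set passed the adjusted threshold in limma (0%; the smallest adjusted p of a member was 0.999). At an unadjusted p of 0.05, 2 members were above 0, SLC38A1 and SLC25A38, against 1.59% of all tested probe sets, and SLC27A1 was below 0, against 2.28%. A moderated F test over the 4 groups passed no probe set either (0%; smallest adjusted p of a member 0.995), while 8 of the 95 members had an unadjusted p under 0.05, against 4.69% of all: SLC38A1, SLC39A14, SLC27A1, SLC8B1, SLC33A1, SLC5A4, SLC35B1 and SLC25A38. Without both arrays that stand apart 3 members did, 2 of them from the 8 (SLC39A14 and SLC35B1). Leaving out high-high 3 alone also gave 3, and leaving out low-high 3 gave 5. The 3 members of the interaction were 2 without high-high 3 and 8 without low-low 1. They were 5 without low-high 1, low-low 3 or high-high 1, 6 without low-high 2, high-low 1 or high-low 3, and 7 without high-low 2.

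SLC38A1, which imports glutamine and other neutral amino acids, was high in a single group. Its signals were 423, 299.6 and 895 in low-low 1 to 3, 608, 397 and 421 in low-high 1 to 3, and 538, 429.7 and 446 in high-low 1 to 3. In high-high 1 to 3 they were 1197, 941 and 2102, above every other liver. The interaction was 1.53 ± 0.55 (SE; limma, unadjusted p = 0.0186, adjusted p = 0.999), from a stress response difference of -0.05 ± 0.39 with low and 1.48 ± 0.39 with high aggressiveness. It was 1.18 without high-high 3, 1.12 without both arrays that stand apart and 0.63 with its probe sets averaged. The further probe sets of the gene gave interactions of 0.90 ± 0.55 and -0.56 ± 0.40, so that the dimmer one lay on the other side of 0.

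SLC27A1, a fatty acid transport protein, had the smallest p for the interaction and was low, with some overlap, in the group with both traits high. Signals were 73.7, 69.9 and 52.8 in low-low 1 to 3, 104, 55.3 and 107 in low-high 1 to 3, 92.3, 91.7 and 166 in high-low 1 to 3, and 57.5, 37.5 and 37.1 in high-high 1 to 3. The stress response difference was 0.67 ± 0.29 with low and -0.78 ± 0.29 with high aggressiveness, and the interaction was -1.45 ± 0.41 (SE; limma, unadjusted p = 0.00477, adjusted p = 0.999). Without both arrays that stand apart it was -0.998. The signals of high-high 2 and 3 lay below 40.58, the lowest mean of a tested probe set, and the interaction depended on the pseudocount. It was -1.75 with a pseudocount of 1 and -0.95 with 64. The other fatty acid transport protein on the array, SLC27A6, had an interaction of 0.78 ± 0.46.

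SLC25A38, the mitochondrial glycine carrier needed for heme synthesis, had its stress response differences in opposite directions with no overlap in either. How many of all tested probe sets had such a pattern was not counted. With low aggressiveness the signals were 474, 474 and 621 in the low-low and 386, 462 and 364 in the high-low livers; with high aggressiveness they were 539.6, 430.3 and 421 in the low-high and 581, 671 and 556 in the high-high livers. The interaction was 0.73 ± 0.25 (unadjusted p = 0.0147, adjusted p = 0.999). SLC8B1 had its highest mean in the high-high group, at 239, 254 and 245, and its lowest in the high-low group, at 148, 172 and 106. SLC5A4 had its highest mean in the low-high group, at 199, 204 and 279, and its lowest in the high-high group, at 125, 90.2 and 73.0. Their interactions were 0.58 ± 0.27, and 0.36 without both arrays that stand apart, and -0.97 ± 0.45, and -0.64 without low-low 3. That of SLC44A2 was -0.52 ± 0.26, and -0.18 in males alone.

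**Figure D4:**
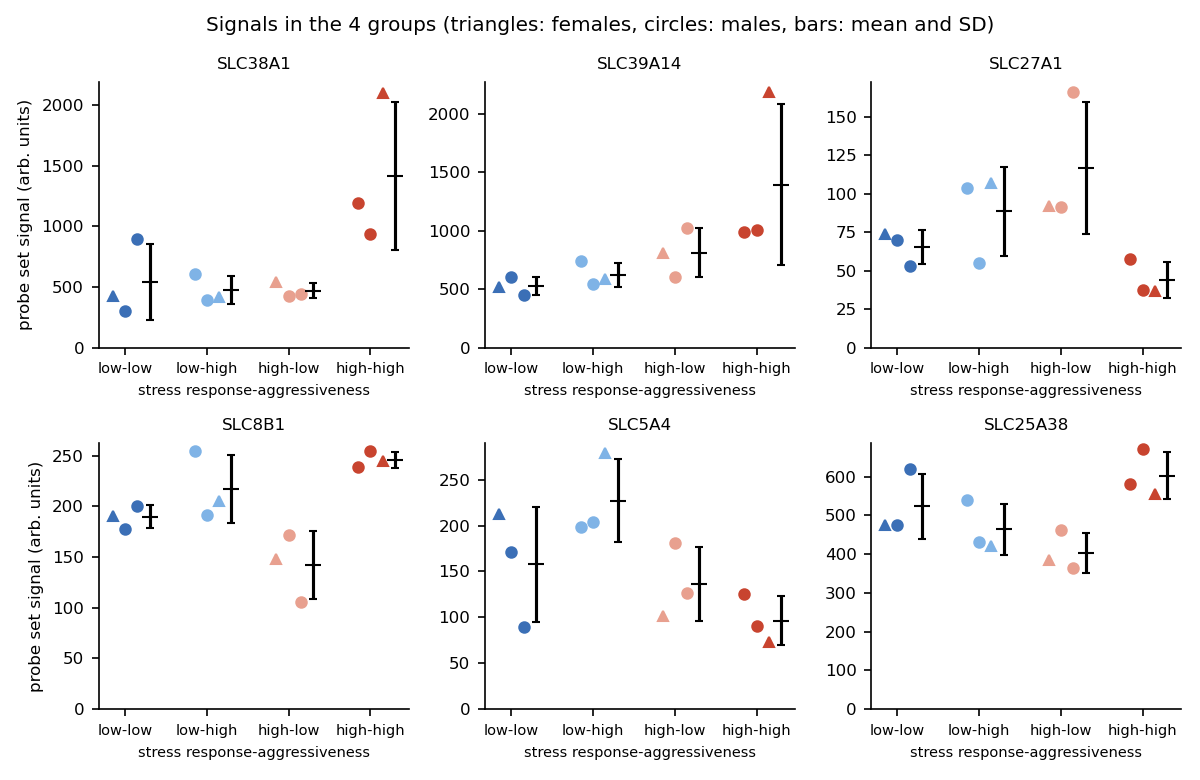
Signal per animal (linear axis from 0, arbitrary units) of 6 of the 8 solute carrier genes with an unadjusted p under 0.05 over the 4 groups (SLC33A1 and SLC35B1 are not drawn), by group; triangles are females, circles males, and bars show the mean and SD of 3 animals. SLC38A1 lies between 941 and 2102 in the high-high group and at or below 895 in all others.

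Sex was balanced over the groups and read as a comparison of its own, males minus females (8 males, 4 females). In limma 0.0688% of the tested probe sets passed the adjusted threshold and no member did (smallest adjusted p 0.818). At an unadjusted p of 0.05 the signal of 2 members was higher in males, against 2.2% of all, and that of 4 was lower, against 3.01%. SLC33A1 differed by -0.49 ± 0.15, with 361 to 733 (median 488) in males and 499 to 939.6 (median 709.7) in females. SLC38A10 differed by -0.43 ± 0.15 and the mitochondrial family member SLC25A30 by -0.44 ± 0.19. The neutral amino acid carrier SLC1A4, named after its value was seen, differed by -0.37 ± 0.16. Higher in males were the zinc transporter SLC39A4, at 255 to 567 in males and 262 to 332 in females (0.47 ± 0.18), and SLC25A17 (0.30 ± 0.12). SLC2A2 had 1424 ± 164 in males and 1206 ± 99.8 in females, a difference of 0.23 ± 0.12 (unadjusted p = 0.0740), and 0.15 without high-low 1. With the EF1A ratio in the model SLC39A4 stood at 0.26, without low-high 3 SLC25A17 stood at 0.20, and without the 3 arrays least like the others SLC25A30 stood at -0.85. The count of 6 members was 2 without low-low 1 and 3 without low-low 2 or without high-high 2.

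The transport classes are described by counts of their tested genes, with no test, beside the 55.7% of all tested probe sets that lay above 0 for stress response and the 52% for aggressiveness. For stress response 8 of 11 ER and Golgi carriers were above 0 with a median difference of 0.175, and 0.138 and 0.131 after quantile normalization and median centring. SLC35B1 and SLC33A1 were the 2 of them with an unadjusted p under 0.05. Of the 13 metal and heme carriers 9 were above 0 (median 0.091), and 8 under both rescalings; SLC39A14 and SLC39A2 had an unadjusted p under 0.05. Sugar carriers had 9 of 11 above 0 (median 0.070), but 7 and 6 under the rescalings. The 55.7% and 52% hold for the values as deposited and all 12 livers. For stress response the median over all tested probe sets was 0.028 there, and 0.002 and -0.016 under the rescalings. Of 9 inorganic ion carriers 2 were above 0 (median -0.112), and 5 without both arrays that stand apart.

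Mitochondrial carriers lay on both sides of 0 for stress response, with 11 of 18 above (median 0.052), SLC25A24 higher and SLC25A48 lower at an unadjusted p of 0.05. For aggressiveness 6 of the 18 were above 0 (median -0.021), and 10 of 18 without both arrays that stand apart, while 10 of 13 metal and heme carriers were above 0 (median 0.086), and 10 of 13 without those arrays. The mean centred log2 signal of the metal and heme carriers was 0.267 in high-high 3, 0.151 in high-high 1 and 0.068 in high-high 2, and between -0.144 and 0.038 in the other livers. Inorganic ion carriers varied within groups, from -0.293 in low-low 1 to 0.415 in low-low 3 and from -0.266 in high-high 1 to 0.40 in high-high 2. The mean over all 95 genes stayed between -0.057 and 0.047.

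**Figure D5:**
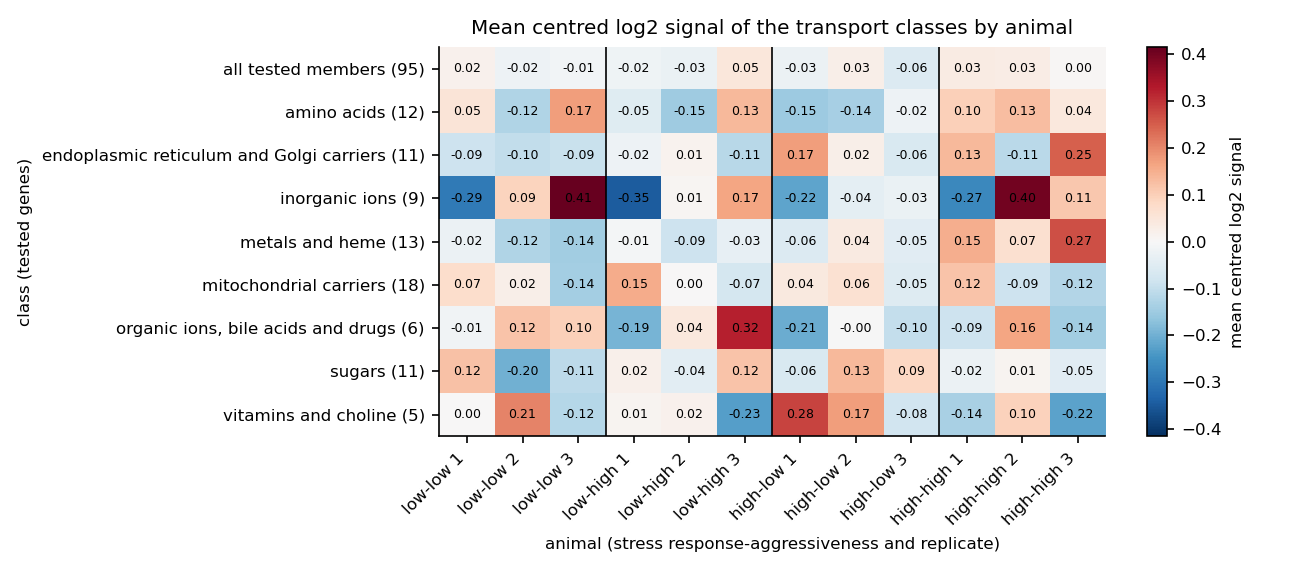
Mean over the tested genes of each transport class of at least 5 genes, and over all 95, of the log2 signal minus the gene's mean over the 12 livers; columns are animals, black lines divide the 4 groups, and red is above and blue below 0. Inorganic ion carriers differ most between animals, and metal and heme carriers reach 0.267 in high-high 3.

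Carriers and channels under other symbols, and partners and regulators of carriers, were read from a list of 45 genes, of which 29 were tested. For stress response 14 were above 0 and 15 below, with a median of -0.023, and none passed the adjusted threshold. At an unadjusted p of 0.05, 2 of the 29 were higher and 2 lower, against 5.03% and 3.13% of all tested probe sets. FLVCR2, a relative of the heme exporter FLVCR1, (0.46 ± 0.14) and ATF4, a transcription factor of amino acid supply and ER stress (0.25 ± 0.10), were higher. The water channel AQP11 (-0.49 ± 0.17) and ABCC2, the export pump for conjugates at the bile canaliculus (-0.43 ± 0.18), were lower. For aggressiveness 15 were above 0. The water channel AQP1 (-0.53 ± 0.19) was the 1 gene of the list with an unadjusted p under 0.05. Of all tested probe sets 1.38% were lower and 1.84% higher at that threshold.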

How the data were processed

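The authors deposited 1 signal per probe set, an intensity on a linear scale from GCOS 1.1.1, per the submitters' processing notes; how probes were summarised is not given in the sources used here. The mean signal after trimming 2% was 499.7 to 499.8 on every array, so arrays had been scaled before deposit, and the values were used as deposited. Of 24123 probe sets 124 controls were left out, then the 33.3% with the lowest mean of log2(signal + 16), which left 15999. Values of log2(signal + 16), computed from the deposited signals, were modelled in limma 3.58.1 (R 4.3.3) with stress response, aggressiveness and sex (8 residual degrees of freedom), and with their interaction (7). P-values were adjusted by Benjamini-Hochberg over the 15999. The number of arrays limits the precision: the median SE of a member was 0.183. Replicate numbers only name animals and pair none. Symbols came from the annotation of the array; 40 members had more than 1 probe set, and SLC2A1 and SLC8A1 had no current RefSeq match. No coordinates or sequences are given.

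Named genes were, among tested members, the 6 higher and 6 lower members with the smallest p for each factor. They included the 6 for the interaction and for the 4 groups, 3 in each direction for sex and the 6 most variable tested members. The 20 brightest, the 2 brightest of each class and a list of 30 liver transporters were taken from all members, tested or not. SLC7A7, the interaction of SLC27A6 and the dim genes below or at the filter were singled out after their values were seen. SLC15A1, below the filter, was named for its class. The members, lists and this rule were chosen with earlier results of these data known. Alternatives were 18 other settings and leaving out each of 12 animals. The fits were tested on simulated data.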

Additional observations from a re-analysis of the deposited data

Results flagged for a closer look

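In the 6 animals of a level, 2 of 48 sets of values examined (the genes named for a factor, in each of its levels) held an animal far from the others by Dixon's gap criterion, which chance gives in about 1 in 20. SLC15A2, the peptide carrier, had a signal of 431.8 in high-low 3, the lowest with high stress response, while the other 5 lay between 607 and 695; without this animal its stress response difference was -0.31 in place of -0.43. The nucleotide sugar carrier SLC35D2 had a signal of 870.6 in high-high 2, the lowest with high aggressiveness, while the other 5 lay between 1213 and 1449.9; without it the aggressiveness difference was 0.35 in place of 0.26.

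SLC25A38 was picked out because all 3 high-low livers lay below all 3 low-low livers and all 3 high-high livers above all 3 low-high livers. The share of all tested probe sets with such a pattern was not counted, so it cannot be set against that background. The interaction of 0.73 was tested and did not pass the adjusted threshold (limma, unadjusted p = 0.0147, adjusted p = 0.999), and it ranged from 0.61 to 0.82 over the alternatives and omitted animals.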

How the results depend on the processing

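No member passed an adjusted p of 0.05 in limma for any comparison under any of the 18 alternatives or with any of the 12 animals left out. Of 36 named differences, recomputed 1054 times, 1051 values kept their direction; the 3 that did not were SLC44A2 for aggressiveness, at 0.096 with probe sets averaged, and SLC31A2 and SLC35F5, at -0.0504 and 0.1196 with the EF1A ratio as covariate. Counts of members with an unadjusted p under 0.05 moved more. For stress response (12) the count was 6 without both arrays that stand apart and 6 without the 3 arrays least like the others (high-high 3, high-low 3 and low-high 3, chosen after seeing the data), and 5 to 15 with 1 animal left out. For aggressiveness (2) it was 4 with quantile normalization, pseudocount 64, probe sets averaged or the mean 3' to 5' ratio as covariate. It was 5 with a variance trend, in males only or without the 3 arrays, and 1 with the EF1A ratio. That 1 member was SLC39A4, which was not among the 2. With 1 animal left out the count was 1 to 5 (1 without high-low 1 or high-high 1, 4 without low-high 2, 5 without low-high 3). For the interaction (3) it was 5 without sex, with array weights or with the EF1A ratio, 6 with the mean ratio, 7 with no filter, and 2 to 8 with 1 animal left out (8 without low-low 1, 2 without high-high 3). For the 4 groups (8) it was 2 in males only, 3 without both arrays, 4 without the 3 arrays and 3 to 10 with 1 animal left out. For sex (6) it was 10 with no filter and 2 to 9 with 1 animal left out. With the EF1A ratio it was 3, and only SLC33A1 of these was among the 6. The median difference of the members stayed within 0.06 of 0. For stress response (0.007) it was -0.0367 with median centring and 0.0449 without the 3 arrays. For aggressiveness (0.014) it was 0.054 in males only. For the interaction (-0.020) it was 0.0339 with no filter, 0.0541 with median centring, 0.0309 with array weights, 0.0243 without both arrays, 0.019 with the mean ratio, 0.0381 without the 3 arrays, and -0.0501 to 0.0259 with 1 animal left out. For sex (-0.011) it was 0.0316 with quantile normalization and 0.0576 with median centring. Of 43 named levels, recomputed 86 times, 6 moved by more than 1 SD, each when probe sets were averaged. Members below the filter have signals close to background and were not compared between groups. Tested members just above it, among them SLC4A2 and SLC39A2, are dim too. The cause of these shifts was not tested.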
